A study of Mus musculus with 2 samples.

Results

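The MYC, HMGA and oncofetal RNA-binding genes were compared between 2 lines of mouse embryonic fibroblasts (MEFs), fibroblasts taken from embryos and here immortalised, that differed in Bmi1, a subunit of Polycomb repressive complex 1 that stimulates the ubiquitylation of histone H2A. The members were 10 genes listed by name, Myc, Mycn, Max, Mxd4, Hmga1, Hmga2, Lin28b, Igf2bp1, Igf2bp2 and Igf2bp3. They were chosen with earlier results of these data known. Every probe set (a group of oligonucleotides read as 1 value) whose annotation named exactly 1 of them was taken. This gave 24 of the 45101 probe sets on the array and 8 of the 10 genes, since no probe set was named for Hmga1 or Igf2bp2 alone. The expression of these 2 genes was not analysed here, and they enter only the promoter sequences. Each line, Bmi1 wild-type and Bmi1 null, was measured on 1 array. Both lines are labelled male and C57BL/6, were derived from littermates and had been immortalised by expression of TBX2, a T-box repressor, so the wild-type line carried that construct as well and neither line was a primary culture.

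MYC and MYCN are basic helix-loop-helix transcription factors that bind the E-box CACGTG as partners of MAX and raise the expression of genes for growth and ribosome production, whereas MXD proteins such as MXD4 take MAX for themselves and repress at the same sites. HMGA proteins are small chromatin proteins with AT-hooks that are abundant in embryonic and transformed cells. LIN28B blocks the maturation of the let-7 family of microRNAs, and HMGA2, LIN28B and the IGF2BP proteins, which bind and stabilise messenger RNAs, are known let-7 targets that are high in the embryo and low in most adult tissues.

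The let-7 family is shown because its shared seed (bases 2 to 8, in capitals) is what links Hmga2, Lin28b and the Igf2bp genes in that background. Microarray values for mature microRNAs were not part of these data. In RefSeq (GRCm38.p6), 10 of 11 mature let-7 and miR-98 sequences read from the 5′ arm or listed without an arm held the seed GAGGUAG, and let-7j alone held another.
mmu-let-7a-5p (chr13:48538239-48538260, minus strand): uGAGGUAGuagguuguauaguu
mmu-let-7d-5p (chr13:48536078-48536099, minus strand): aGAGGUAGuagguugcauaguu
mmu-miR-98-5p (chrX:151913229-151913250, plus strand): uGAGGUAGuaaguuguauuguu
mmu-let-7j (chr3:140028281-140028304, plus strand): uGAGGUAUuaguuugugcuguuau

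Promoter sequences bear on the MYC network, whose proteins bind CACGTG. RefSeq windows of 250 bases before to 50 bases after the gene start were available for 8 of the 10 members, all but Myc and Igf2bp1. CACGTG, a palindrome searched as such on both strands, was present in 4 of these 8 genes (Max, Mxd4, Lin28b and Igf2bp3), against 7.15% of all 32851 windows of the same length. TATAAA was found in 0 of the 8 against 13.6% of all windows, and GGGCGG on either strand in 5 of 8 against 35.7%. A match of letters is a description and does not show binding. The 250 bases before the start are given for Mxd4, which was higher in null cells, and for Hmga2, which was lower. Capitals mark CACGTG, which the Hmga2 window does not hold.
Mxd4 (GRCm38.p6, chr5:34187711-34187960, minus strand): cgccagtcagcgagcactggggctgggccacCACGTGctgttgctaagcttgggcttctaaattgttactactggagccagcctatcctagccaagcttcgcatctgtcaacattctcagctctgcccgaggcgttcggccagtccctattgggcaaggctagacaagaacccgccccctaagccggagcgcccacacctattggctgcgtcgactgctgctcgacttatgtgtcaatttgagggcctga
Hmga2 (GRCm38.p6, chr10:120476470-120476719, minus strand): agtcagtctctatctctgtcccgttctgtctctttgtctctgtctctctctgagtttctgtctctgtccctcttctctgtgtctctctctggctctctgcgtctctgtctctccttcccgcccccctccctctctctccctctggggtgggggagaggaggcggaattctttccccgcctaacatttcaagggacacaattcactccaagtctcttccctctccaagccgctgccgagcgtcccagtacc
In the Igf2bp3 window the motif occurred at positions −23 and 5 relative to the annotated start, which are shown with 12 bases on each side because this gene had the highest ratios among the members.
Igf2bp3, first match (chr6:49214960-49214989, minus strand): gctgggattcctCACGTGagacgttgattt
Igf2bp3, second match (chr6:49214932-49214961, minus strand): ttgtagtttgaaCACGTGgctcattcaaaa
The windows also differed in CpG content, the feature by which promoters are commonly classed. The Mxd4 window held 18 CpG, that of Hmga2 12, that of Igf2bp3 25 and that of Lin28b 8, and the median over all windows was 7. Those of Mycn (14), Max (30), Hmga1 (40 and 38 in its 2 windows) and Igf2bp2 (47) were above that median too. CACGTG and GGGCGG each contain a CpG, so the shares of these motifs in member windows and in all windows are not like for like.

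The arrays were checked for the targeted gene, for the cell type and for the labelled sex. Bmi1 had signals of 9933 (wild-type) and 2146 (null) at its brighter probe set, 4.63-fold lower in the null line, but of 931 and 831 at the other, and the position of these probes with respect to the deletion is not known here. The transcript of Tbx2 lay under the floor in both lines (23.2 and 8.03), where the floor is the signal of 100, 0.2 times the trimmed mean of an array, under which values were not read as a level. Of 8 fibroblast markers all were above the floor in wild-type cells, and Thy1 was the 1 that was below it in null cells (375 and 50.7). Thy1 was the 1 at least 2-fold lower, 2 were at least 2-fold higher and 5 differed less. The 2 were Col1a1 (6860 and 14841) and Col3a1 (4617 and 20209). Over all measured genes 5.73% were higher and 5.16% lower. Of 9 markers of pluripotent and germ cells, including Lin28a, Pou5f1 and Nanog, 0 were above the floor on either array. The neural progenitor markers above it on at least 1 array were Nes (1467 and 2128) and Tubb3 (330 and 122). The endothelial ones were Kdr (150 and 206) and Cdh5 (208 and 29.2), and that of macrophages and blood was Adgre1 (171 and 118). The brightest probe sets of 3 genes of the Y chromosome, Eif2s3y, Uty and Kdm5d, gave signals of 712 to 1683 in the wild-type line and of 15.3 to 26.5 in the line labelled null, although both carry the label male. Of 5 epithelial markers 2 were above the floor, Epcam with 149 and 834 (5.82 and 11.5 at its other probe set) and Krt5 with 149 and 155, while Cdh1, Krt8 and Krt18 were under it on both arrays. Of 5 hepatic and endodermal markers Foxa2 was above it in the null line alone (25.9 and 793), and Afp, Alb, Ttr and Sox17 were under it on both. The summed signals, in which Epcam and Foxa2 make up most of the difference, were 385 and 1170 over the epithelial list and 200.1 and 964 over the hepatic list. Their part in the differences given here was not tested. Line, genotype, the difference in Y-linked signal, culture and array cannot be told apart in this design. Because each group is a single array, no value has a replicate check and no test was run. In all pairs of signals that follow, the wild-type value stands first.

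Among the 24 member probe sets, 16 were above the floor on both arrays, 5 were above it in null cells alone and 3 were below it on both arrays and were given no ratio. Of the 21 measured, 7 passed 2-fold upward in the null line, 3 passed it downward and 11 did not pass it, of which 2, both of Igf2bp3, are lower bounds and may lie past 2-fold. The corresponding shares of all 23067 measured probe sets were 4.93% higher and 4.96% lower. Since the members were chosen with earlier results of these data known, their counts are not independent of the data and are description only. The 7 came from 2 genes, Mxd4 and Igf2bp3, and the 3 from Hmga2 alone, so probe sets of 1 gene, which share a transcript, are not separate cases. The 5 measured in null cells alone could only be higher there. Of the 16 above the floor on both arrays 4 passed 2-fold upward and 3 downward, against 4.07% and 4.19% of the 19790 such probe sets. With the 5 at their lower bounds, the median log2 ratio (null over wild-type) was 0.64 over the 21, against −0.011 over all measured probe sets. Because RNA of whole cultures was measured, fewer cells with a transcript and less of it per cell cannot be told apart.

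**Figure D1:**
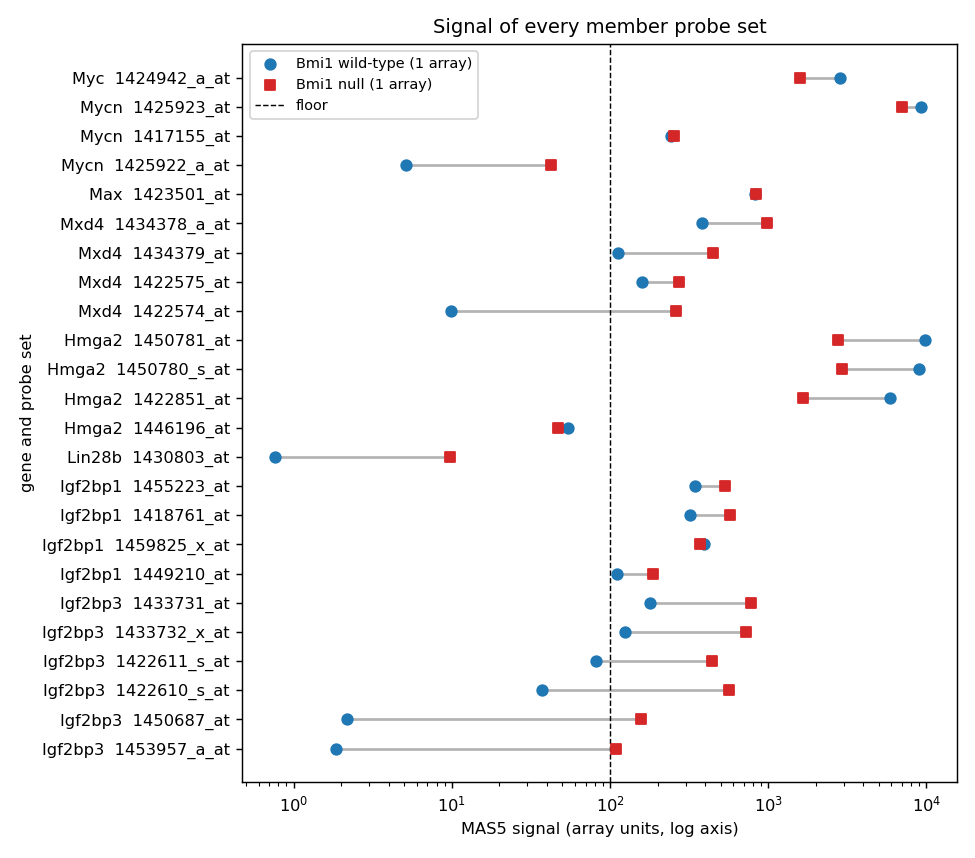
MAS5 signal of all 24 member probe sets (rows) on the wild-type array (circles) and the null array (squares), on a log axis in array units, with the floor of 100 as a dashed line and no error bars since there was 1 array per group. The 3 bright Hmga2 probe sets lie to the right in wild-type cells, whereas all 6 Igf2bp3 and all 4 Mxd4 probe sets lie to the right in null cells.

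The largest member difference on bright probe sets was that of Hmga2, the architectural chromatin protein of embryonic and transformed mesenchymal cells. Its brightest probe set (1450781_at) gave 9791 and 2761, so that the null signal was 3.55-fold lower (a log2 ratio of −1.83). The others read 8955 and 2939 (1450780_s_at, 3.05-fold lower) and 5920 and 1651 (1422851_at, 3.59-fold lower). All 3 were designed on the same transcript record and were lower in null cells by similar factors, with log2 ratios that spanned 0.23. For comparison, the SD of a log2 ratio between probe sets of the same gene was 0.24 over the 4132 pairs in which the brighter probe set averaged 2000 or more (geometric mean of both arrays), a spread that covers probe set error and not the variation between cultures. Of all measured probe sets, 1.46% to 1.93% had lower ratios than those of Hmga2. The fourth Hmga2 probe set (1446196_at), designed on another record, read 54.3 and 47.0, below the floor on both arrays, and so gives no ratio. A probe set annotated to Hmga2-ps1, by its symbol a pseudogene of Hmga2, read 237 and 123 (1.92-fold lower). It is no member, was looked up after the Hmga2 values were seen and could share sequence with Hmga2.

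Other HMG proteins were described by a list of HMGB, HMGN and related genes, of which 9 were measured. In this list 0 genes passed 2-fold upward and 0 downward, where 5.73% of all 11766 measured genes were higher and 5.16% lower. Their log2 ratios lay between −0.33 and 0.59, with a median of 0.24 against 0.0060 for all genes.

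Of the factors that activate through the E-box, Myc was lower in null cells and Mycn and Max differed little. Myc, a driver of cell growth, gave 2860 and 1593 at its 1 probe set (1424942_a_at), which is 1.80-fold lower in the null line (a log2 ratio of −0.84), and 6.79% of all measured probe sets had lower ratios. This value is below the 2-fold threshold and is 3.45 times the SD between probe sets of 1 gene at that brightness. That SD covers probe set error alone and does not measure the variation between cultures or arrays. Mycn, the neural and embryonic relative of Myc, gave different pictures at its probe sets. The bright one (1425923_at) read 9221 and 6988, 1.32-fold lower (log2 ratio −0.40), and 1417155_at read 243 and 253, 1.04-fold higher, while 1425922_a_at stayed under the floor (5.13 and 42.5). Max, the shared partner of the MYC and MXD proteins, read 831 and 838 at 1423501_at, a log2 ratio of 0.013 that is within the spread between probe sets.

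Mxd4, the MAX partner that opposes MYC and is known for its expression in differentiating and resting cells, was higher in null cells at each of its 4 probe sets. The brightest (1434378_a_at) gave 383 and 989, which is 2.58-fold higher in the null line (a log2 ratio of 1.37). From the same record, 1434379_at read 112 and 446, 3.99-fold higher. The pair from another record read 158 and 272 (1422575_at, 1.72-fold higher) and 9.87 and 260 (1422574_at, at least 2.60-fold higher, a lower bound because the wild-type value was below the floor). The 3 above the floor on both arrays were all higher in the null line, whereas the fourth could only be higher. In all, 3 of 4 passed 2-fold, but the wild-type values of 3 were close to or below the floor. When the floor was raised to 0.4 times the trimmed mean, the log2 value of 1422574_at became 0.38, under 2-fold.

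**Figure D2:**
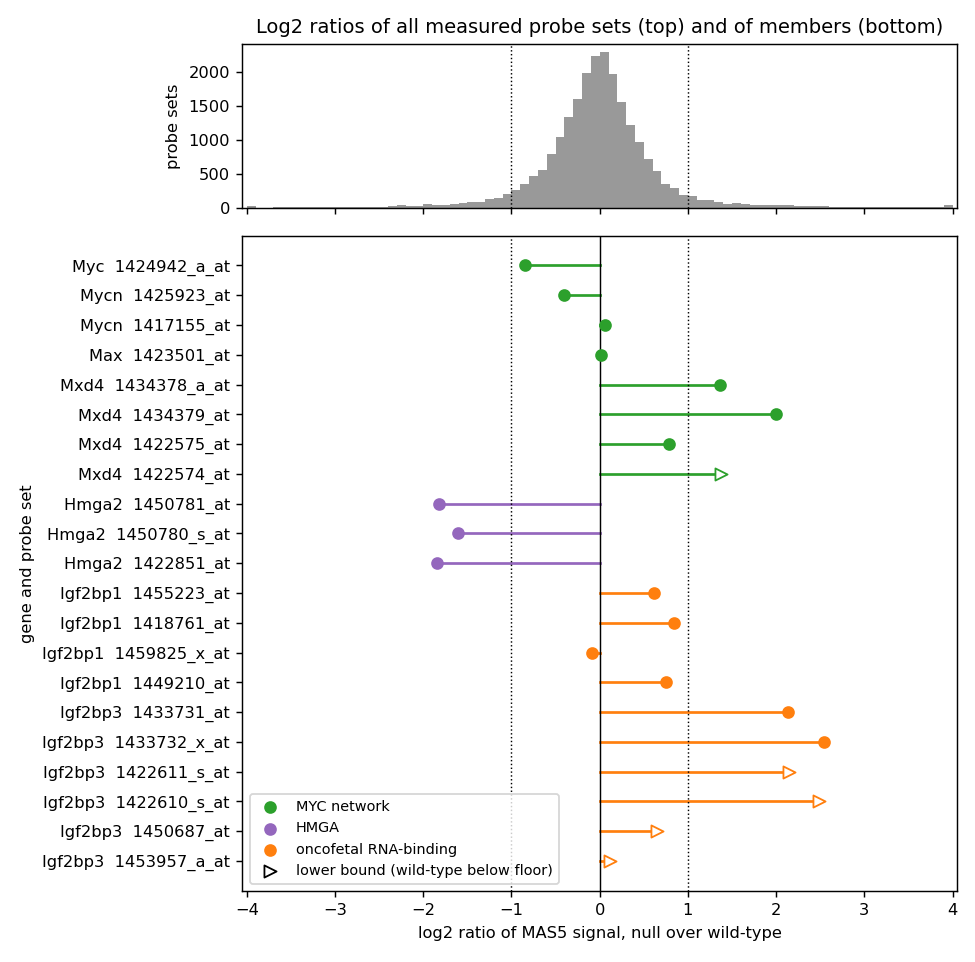
Log2 ratio of MAS5 signal, null over wild-type (x axis), of all measured probe sets (upper panel, a count per bin, values beyond 4 in size drawn at the end) and of the 21 measured member probe sets (lower panel, coloured by group, open triangles for lower bounds). Dotted lines mark 2-fold, and Hmga2 lies left of them at 3 probe sets, Mxd4 right at 3 and Igf2bp3 right at 4.

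The rest of the MYC-MAX-MLX network was taken from a list of 11 further genes. Among the 9 measured, 1 passed 2-fold downward and 0 upward, where 5.16% and 5.73% of all measured genes did. Their median log2 ratio was −0.35 against 0.0060 for all genes. Mycl, the third MYC protein, gave 436 and 110 at its brightest probe set, 3.98-fold lower in the null line. Its other probe sets, with null signals below the floor, gave only lower bounds of 1.67-fold and 1.02-fold for the decrease. The mean over the 3 probe sets, itself a bound because of those 2, was −0.92 on the log2 scale. Among the MAX-binding repressors, Mxi1 read 1683 and 1105 (log2 ratio −0.61), Mnt 1284 and 898 (−0.52) and Mxd1 195 and 152 (−0.36). Mxd3 had values in the other direction, 252 and 399 (0.66), with a lower bound of 2.49-fold at another probe set. Mxd4 and Mxd3 therefore had positive ratios and Mxi1, Mnt and Mxd1 negative ones at their representing probe sets. Mga (−0.14), Mlx (−0.35) and Mlxip (0.10) differed less than 2-fold. Bmyc (66.1 and 131) has only a lower bound of 0.39, since its wild-type signal was under the floor, and Mycs and Mlxipl were below the floor on both arrays. MYC cofactors and turnover enzymes, of which 17 were measured, had log2 ratios from −0.63 to 0.66 with a median of 0.0071, and 0 of them passed 2-fold.

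Genes that MYC is known to activate differed little in size. Of 32 measured, 1 passed 2-fold downward in null cells, 0 upward and 31 stayed between, where 5.16% and 5.73% of all measured genes passed. The 1 was Rcc1, the exchange factor of the Ran GTPase, which read 936 and 421 (2.22-fold lower). Of the 32, 26 had a ratio below 0, where 49.4% of all measured genes did, and the median log2 ratio was −0.14. With the ratios centred on their median 24 were below 0, against 47.3% of all genes. After quantile normalization 27 were, against 48.9%. These genes were mostly bright, and they were not compared with genes of like brightness. Among 8 genes that MYC is known to repress the median was 0.44, and 1 passed 2-fold upward and 2 downward, against 5.73% and 5.16% of all measured genes. Ndrg2 was 2.91-fold higher (297 to 866), whereas its relative Ndrg1 was 3.64-fold lower (1618 to 444) and the stress gene Gadd45a 4.42-fold lower (3112 to 705). Of the other Ndrg1 probe sets, 3 had log2 ratios from −1.80 to −2.19, and the fourth (290.1 and 25.5), with its null signal under the floor, was at least 2.90-fold lower.

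Of the oncofetal RNA-binding genes, only Igf2bp3 and Igf2bp1 had a ratio, and only Igf2bp3 passed 2-fold. Igf2bp3, whose protein binds Igf2 and other messenger RNAs and is typical of embryonic and tumour cells, gave 178 and 778 at its brightest probe set (1433731_at), 4.38-fold higher in the null line (a log2 ratio of 2.13). From the same record, 1433732_x_at read 123 and 719, 5.83-fold higher. Both were above the floor on both arrays, although the wild-type signals were not far above it. The probe sets 1422611_s_at (81.1 and 443) and 1422610_s_at (37.0 and 562) had wild-type signals under the floor, which leaves lower bounds of 4.43-fold and 5.62-fold for the increase. The last 2 were dim in null cells too, 1450687_at at 2.17 and 156 and 1453957_a_at at 1.85 and 109, with lower bounds of 1.56-fold and 1.09-fold. Of the 6, 4 passed 2-fold, but the 4 with wild-type signals under the floor could only be higher, so the direction rests on 1433731_at and 1433732_x_at, which share a record. The suffixes _s_at, _x_at and _a_at mark probe sets that can match several transcripts, and 4 of the 6 carry one. Of all measured probe sets, 0.793% had higher ratios than 1433732_x_at.

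Igf2bp1, the paralogue that also stabilises Myc messenger RNA, had smaller differences. It read 347 and 533 at 1455223_at (1.54-fold higher), 321 and 576 at 1418761_at (1.79-fold higher) and 111 and 187 at 1449210_at (1.68-fold higher). At 1459825_x_at it read 394 and 371, 1.06-fold lower. So 3 of 4 probe sets had log2 ratios of 0.62 to 0.84, between 1.75 and 2.38 times the SD of 0.35 between probe sets of that brightness, and none passed 2-fold. This SD too leaves out the variation between cultures. Lin28b, the let-7 inhibitor, read 0.761 and 9.72 at its 1 probe set (1430803_at), below the floor on both arrays, and its paralogue Lin28a was also below it. A low value at a single probe set does not show that the transcript was absent.

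The partners of these genes were described by lists. Over all measured genes 5.73% passed 2-fold upward and 5.16% downward, so a count of 0 or 1 in lists of this size says little. Genes of LIN28 and let-7 processing, 18 of them measured, had log2 ratios from −0.61 to 0.69 and a median of −0.054, and 0 passed 2-fold. Of 18 measured let-7 targets outside the members, likewise 0 passed it in either direction, with a median of −0.032 and a range from −0.67 to 0.99. Of the members named above as let-7 targets, Hmga2 and Igf2bp3 had log2 ratios of −1.83 and 2.13, of opposite sign and outside the range of the other 18. Igf2bp1 had 0.62 at its representing probe set, inside that range, and Lin28b had no ratio. Hmga2 and Igf2bp3 had the largest member ratios in each direction, so their place outside the range is partly fixed by that choice. Of 13 measured IGF2BP partners and target RNAs, 1 passed 2-fold upward and 0 downward, around a median of 0.074. The 1 was Igf2, the fetal growth factor whose messenger RNA gave the family its name, which read 241 and 1069 (4.43-fold higher), while neither array rose above the floor at its other probe set.

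Fetal growth genes were the list with the most members past 2-fold. Of 8 measured, 4 passed 2-fold upward and 1 downward, against 5.73% and 5.16% of all measured genes. The median log2 ratio was 0.93, with genes under the floor on 1 array at their bound. Besides Igf2, the Notch-like ligand Dlk1 was 5.61-fold higher (759 to 4258) and the zinc-finger gene Peg3 2.39-fold higher (248 to 593, and 1.76-fold at another probe set). Plagl1 (43.4 to 305, at least 3.05-fold higher) and Cdkn1c (396 to below the floor, at least 3.96-fold lower) were too dim for the naming rule and were chosen after their values were seen, to account for the counts. The other 2 probe sets of Plagl1 were under the floor on both arrays. Under the higher floor of 0.4 times neither gene passed 2-fold, at log2 bounds of 0.61 for Plagl1 and −0.99 for Cdkn1c. All 5 are known as imprinted genes, which are expressed from 1 parental allele. So are Mest (log2 ratio 0.60) and Grb10 (0.42) of the same list, which stayed under 2-fold. The measured list was made up largely of such genes, so the shared trait follows from the choice of the list. Under a floor of 0.1 times the trimmed mean the median became 0.53, and under 0.4 times it became 0.61, over the genes measured there.

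**Figure D3:**
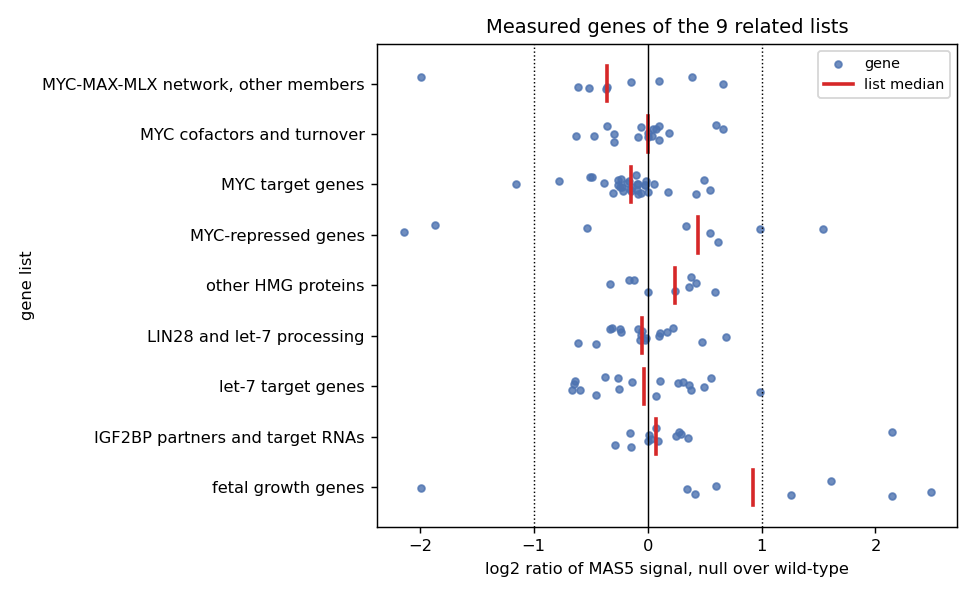
Log2 ratio of MAS5 signal, null over wild-type (x axis), of each measured gene (points, spread vertically for sight) in 9 lists of related genes (rows), with list medians as red bars and 2-fold as dotted lines. MYC target genes crowd just left of 0 around a median of −0.14, and only the lists of fetal growth, MYC-repressed, IGF2BP-related, network and MYC target genes hold points past 2-fold.

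The sensitivity of the ratios to the treatment of dim signals separated the members. Across the floors, pseudocount and scalings, the 3 Hmga2 values and the Myc, Mycn and Max values shifted by less than the SD between probe sets of a gene, as did those of Igf2bp1. Larger shifts were seen at all 6 Igf2bp3 probe sets and at 2 of 4 of Mxd4, those with the wild-type signals nearest to or below the floor. Without any floor the value of 1450687_at of Igf2bp3 was 6.17 on the log2 scale, a ratio to a wild-type signal of 2.17 that cannot be read as a fold. Of the 10 probe sets past 2-fold, 59 of 60 values under these alternatives stayed past it. Their direction is no sign of stability, since floors and a pseudocount cannot turn it.

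**Figure D4:**
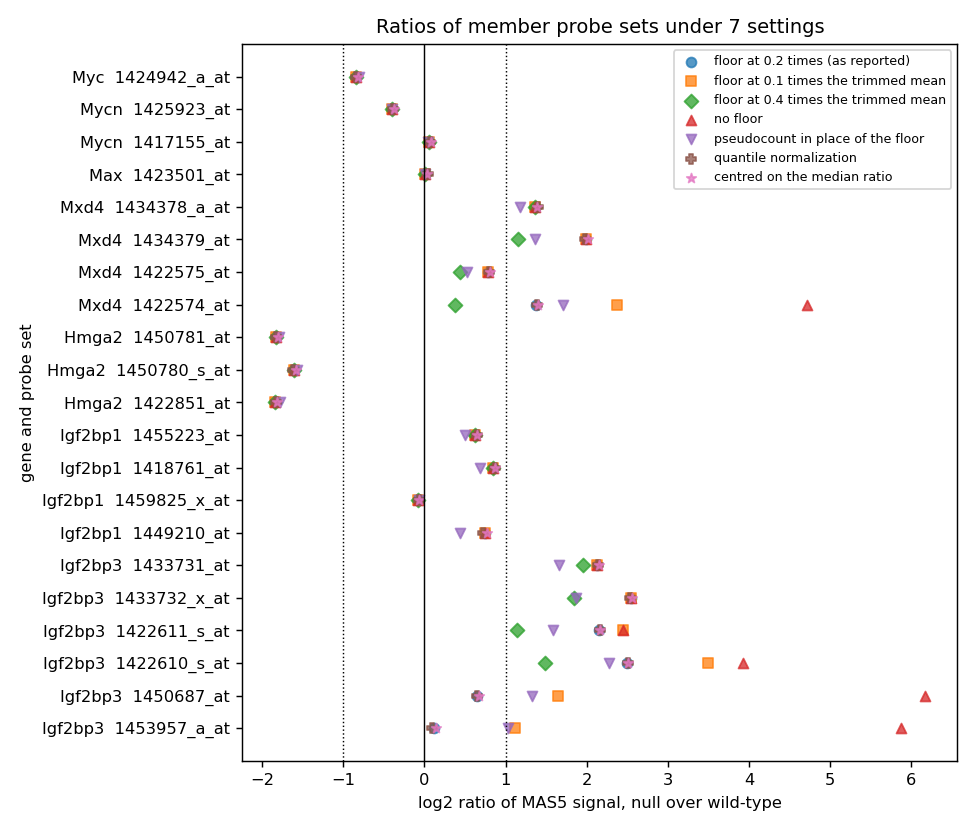
Log2 ratio, null over wild-type (x axis), of the 21 measured member probe sets (rows) under 7 treatments of low signals and scaling (symbols), with dotted lines at 2-fold. Under the floor of 0.4 times only 18 of them have a symbol. Symbols coincide for Hmga2 and Myc and spread for Igf2bp3 and Mxd4, up to 6.17 for 1 Igf2bp3 probe set without a floor.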

How the data were processed

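Total RNA of 1 wild-type and 1 Bmi1 null line was converted through oligo(dT)-primed cDNA to biotin-labelled cRNA, which was hybridised to Affymetrix mouse arrays. The authors deposited 1 linear signal intensity per probe set, computed with MAS5, per the labels. Each array had been scaled as a whole, since both had a mean of 500 once the highest and lowest 2% of signals were trimmed off. Symbols came from the platform annotation (34958 probe sets with 1 symbol, 932 with several, 9211 with none) and were checked through Entrez identifiers against RefSeq (34754 found, 0 changed). Signals below 0.2 times the trimmed mean were raised to that value, and log2 ratios were then computed with Python 3.11.15, numpy 2.4.6 and pandas 2.3.3. Below the floor on 1 array a fold is a lower bound, and below it on both no ratio was given. For lists, the probe set with the highest log2 signal averaged over both arrays stood for its gene. Up to 4 genes of a list were named, by size, among those at least 2-fold different whose brighter array reached the trimmed mean, besides all members, the MYC-MAX-MLX list and Bmi1. The step that computes ratios was tested on simulated data. The members and lists were chosen with earlier results of these data known. The number of arrays limits precision; no sample carries a replicate, so no test was run. The SD between probe sets of 1 gene is that of the differences of log2 ratios over all pairs above the floor, divided by the square root of 2. Alternatives were other floors, a pseudocount, quantile normalization, centring, leaving out ambiguous probe sets and averaging probe sets.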

Additional observations from a re-analysis of the deposited data

How the results depend on the processing

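The count of member probe sets at least 2-fold higher in null cells was 7, against 4.93% of all measured probe sets. It became 11 without a floor, over all 24 probe sets and against 14.9% of all probe sets. When probe sets suffixed _s_at, _x_at or _a_at were left out it was 3, over 13 measured and against 5.01%. The 3 left were of Mxd4 and Igf2bp3. Leaving probe sets out can only lower the count or keep it, and here 7 of 21 became 3 of 13. The count was 6 to 9 under the other alternatives, where the share of all probe sets ran from 2.1% (pseudocount) to 5.58% (floor of 0.1 times). The count of those at least 2-fold lower was 3 throughout, except 2 without the suffixed probe sets. The share of all probe sets that were lower ran from 1.89% (pseudocount) to 9.93% (no floor), so equal counts stand against unequal shares. The median log2 ratio of the members ranged from 0.41 to 0.81. Counts over the 9 lists together, 5 higher and 5 lower among 128 genes, were 4 to 6 and 4 to 5 under the alternatives run for them. Over all measured genes 5.73% were higher and 5.16% lower. Of the values of single members, genes and lists, 27 of 199 moved by more than the spread between probe sets. Ratios lost under a higher floor are not among the 199. No paired analysis was possible because there was 1 array per group, and for the same reason no array could be left out. Signal over background limits the dim probe sets, above all those of Igf2bp3 and Mxd4.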
